A study of Drosophila melanogaster with 6 samples.

Results

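The genes described here build and run the early secretory pathway of the fly: the coats that bud transport vesicles, the channel and targeting particle that bring new proteins into the endoplasmic reticulum (ER), and the sensors of ER stress. They were chosen by gene symbol (names beginning with Sec or Srp and a digit, names beginning with SsR or TRAPPC, names ending in COP, and the 8 symbols Sar1, Tango1, bai, eca, CHOp24, Xbp1, Ire1 and PEK) and by a mean of at least 10 scaled counts. The rule found 42 of the 13517 genes in the table, and none of the 42 was lost to the mean filter, since the lowest, Sec20, had a mean of 212 scaled counts. No symbol in the table began with TRAPPC. The name rule also brought in 6 subunits of the exocyst, which acts after the Golgi, the Arf exchange factor gene Sec71, the SNARE genes Sec20 and Sec22, and Srp54, which despite its name encodes a splicing factor and not a part of the signal recognition particle.

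RNA came from muscle-enriched lysates of late Drosophila melanogaster larvae, each pooled from 7 to 10 animals, with 3 samples in each of 2 groups. Every animal carried the driver Mhc-Gal4, which uses the promoter of the muscle myosin heavy chain gene. The control group combined it with UAS-mCherryRNAi, against a fluorescent protein gene foreign to flies, and the knockdown group with UAS-twinstarRNAi, against twinstar (tsr), the fly cofilin gene. The labels give no age in hours, name the tissue as adult while their growth protocol and the design text name larvae, and record the replicates as biological. The driver acts in muscle, whereas a lysate also holds other tissues of the body wall, so that fewer cells of a type and less RNA per cell cannot be told apart in any value below.

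Secretory and membrane proteins enter the ER through the Sec61 channel, to which the signal recognition particle (SRP) brings the ribosome. They leave the ER in vesicles coated by COPII, while COPI-coated vesicles return ER proteins and receptors from the Golgi. When folding in the ER falls behind, the membrane sensors Ire1, PEK (the fly PERK) and Atf6 start the unfolded protein response, which in many cells raises the amounts of ER chaperones and of secretory pathway genes. In muscle the pathway supplies membrane proteins of the sarcolemma, the sarcoplasmic reticulum (itself a specialised ER) and the synapse.

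The libraries were of similar depth, with 37138289 to 41900871 reads in genes. Control replicate 2 stood apart from the other controls, correlating with them across genes at 0.759 and 0.813 on the log2 scale, against 0.951 between control replicates 1 and 3. The targeted gene tsr had 39133, 29266 and 25816 scaled counts in the controls and 6966, 7070 and 5035 in the knockdown samples. That left 20.2% of the control level, a log2 fold change of -2.30 (SE 0.21, limma adjusted p = 0.00525). With 3 samples against 3, an exact permutation test cannot give a two-sided p below 0.1, so the tests here are limma's, fitted across 11720 genes and adjusted over all of them by the Benjamini-Hochberg method.

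Most of the 42 genes had small negative differences that did not pass the test singly. Of the 42, 39 had a log2 fold change below 0 (92.9%, against 46.1% of all tested genes), with a median of -0.30, where the median of all tested genes was 0.06. The values ran from -0.86 (SsRbeta) to 0.08 (Sec6). Singly, 4 genes fell past the adjusted threshold of 0.05: Sec16, Sec24AB, Sec23 and Sec22. That share, 9.52%, was close to the 7.02% of all tested genes that were called lower. None was called higher by limma, against 4.58% of all genes, and none was higher at an unadjusted p under 0.05, against 14.0%. On the reads behind the scaled counts, edgeR and DESeq2 also called 0 higher, against 3.24% and 10.7% of all genes. The more widespread feature was the order of the samples, mostly without a call. In 23 of the 42 genes (54.8%), the 4 called ones among them, every knockdown sample lay below every control, against 19.6% of all tested genes. At an unadjusted p under 0.05, 17 were lower (40.5%, against 15.1%). The opposite order, every knockdown sample above every control, occurred in 0 of the 42, against 16.8% of all genes.

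**Figure D1:**
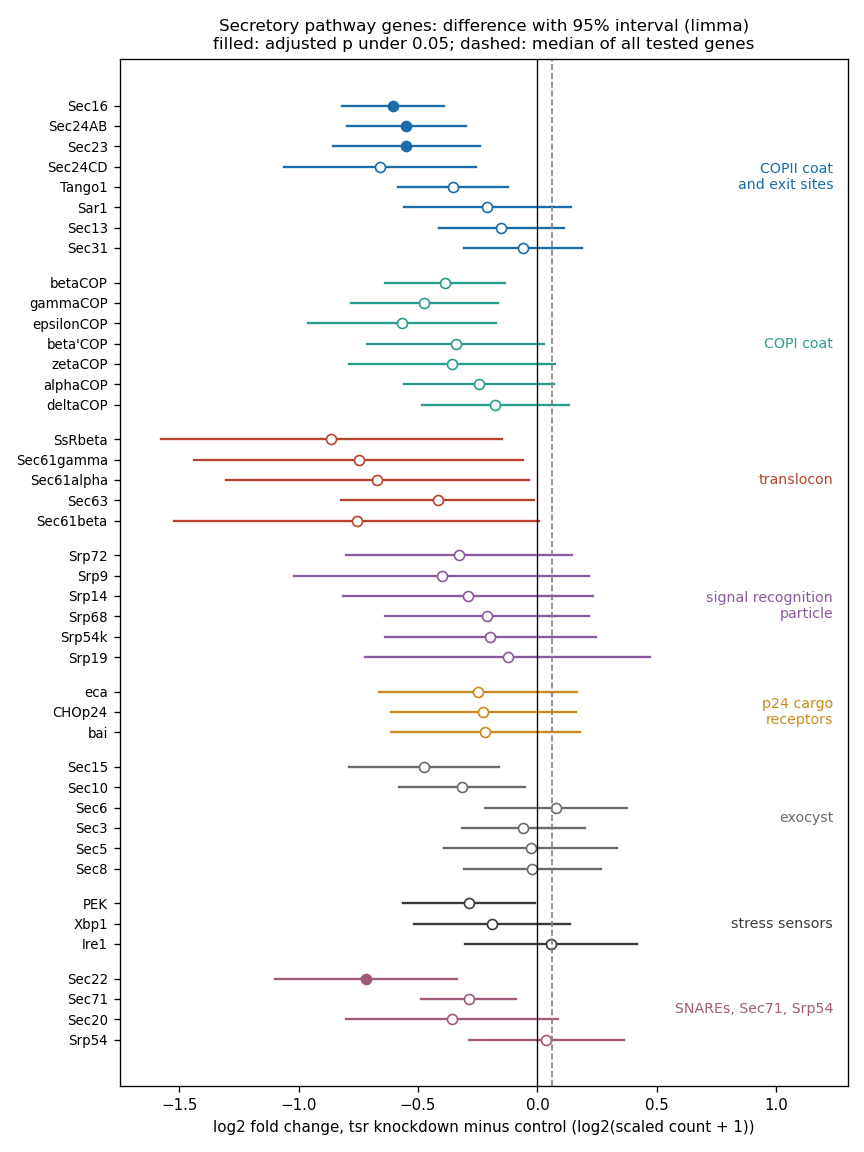
Log2 fold change (knockdown minus control, on log2(scaled count + 1)) of the 42 genes, grouped by role, with limma's 95% interval as a line. Filled points are the 4 genes with an adjusted p under 0.05, and the dashed line is the median of all tested genes, 0.06; 39 of the 42 points lie left of 0.

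These calls rested on few samples. By edgeR 3 of the 42 were called lower (all genes 6.65%), by DESeq2 13 (all genes 13.4%), and by limma with upper-quartile scaling 2, Sec16 and Sec24AB (all genes 5.46%). Leaving out control replicate 3, knockdown replicate 1 or knockdown replicate 2 ended all 4 calls, leaving out knockdown replicate 3 left 1, and leaving out control replicate 2 gave 8, while the background in those 5 fits was 2.16%, 1.22%, 2.18%, 4.16% and 7.86%. Without control replicate 1 there were 5 calls (all genes 5.0%), and the median of the 42 was -0.18. In the fit on all 6 samples 41 of the 42 lay below the median of all tested genes. Over the 16 alternative fits between 35 and 42 did. The scalings shift all genes nearly alike and the replicate block leaves fold changes unchanged, so neither could move that count much. The median of the 42 minus that of all genes was -0.36 on all 6 samples. It ranged from -0.42 without control replicate 2 to -0.23 without control replicate 1, and was -0.24 by edgeR and by DESeq2.

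The COPII coat and the ER exit sites where it forms held 3 of the 4 called genes. These 3 were 37.5% of the group, against 7.02% of all tested genes called lower. The count depended on the method. Of the 8 genes, edgeR called 2 lower (all genes 6.65%) and DESeq2 called 5 (all genes 13.4%). The 3 called by limma encode the exit site scaffold and subunits of the inner coat layer, while neither gene of the outer layer was called by limma, edgeR or DESeq2. Sar1, the GTPase on which Sec23 acts, was not called by any of these either, at -0.21. A difference between the layers was not tested. Sec16 (FBgn0052654, X:12596047-12609910), the scaffold of exit sites, had 8284, 8065 and 8712 scaled counts in the controls and 5391, 5338 and 5743 in the knockdown. The groups were far apart and each was even. Its mean fell from 8353 ± 329 to 5491 ± 220 (SD, n = 3), a log2 fold change of -0.61 (SE 0.09, limma adjusted p = 0.0149).

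Sec23 (FBgn0262125, 3R:5649065-5652629), the inner coat subunit that activates GTP hydrolysis by Sar1, had 7534, 5983 and 5978 scaled counts in the controls and 4557, 4577 and 4131 in the knockdown. Control replicate 1 was the highest, and no knockdown sample reached the controls. The log2 fold change was -0.55 (SE 0.13, limma adjusted p = 0.045), and edgeR gave an adjusted p of 0.0613. Sec24AB (FBgn0033460, 2R:9876232-9882357), 1 of the fly's pair of Sec24 genes for the inner coat subunit that binds cargo, had 4288, 4980 and 4204 scaled counts in the controls and 3096, 3088 and 3002 in the knockdown. Its knockdown samples agreed within their narrow spread (3062 ± 52, SD, n = 3) and lay well under the controls (4491 ± 426). The log2 fold change was -0.55 (SE 0.10, limma adjusted p = 0.0275). Exons of Sec24AB overlap those of CG12744 and an antisense RNA on the other strand. The other cargo subunit, Sec24CD, had the largest difference of the group and missed the threshold by limma. Its controls were 6369, 4460 and 5069 scaled counts and its knockdown samples 3239, 3767 and 3004, a log2 fold change of -0.66 (SE 0.16, limma adjusted p = 0.0548). No knockdown sample reached a control, but the controls were uneven. DESeq2 called Sec24CD lower (adjusted p = 0.0055), while edgeR did not (adjusted p = 0.0723).

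The outer coat genes stood near their control level. Sec31 had 5297, 4468 and 4746 scaled counts in the controls and 4458, 4709 and 4719 in the knockdown, so the groups overlapped. Its log2 fold change was -0.06, with a 95% interval from -0.31 to 0.18 (limma adjusted p = 0.716). Exons of Sec31 overlap those of ana2 and an antisense RNA on the other strand. Sec13, whose product is shared with the nuclear pore, had 3045, 2503 and 2685 scaled counts in the controls and 2395, 2543 and 2452 in the knockdown. Its log2 fold change was -0.15, with an interval from -0.41 to 0.11 (limma adjusted p = 0.409). A ratio of genes within a sample is free of the scaling between samples. Both pairs below were chosen after their values were seen, so their ratios are given with no test. The scaled count of Sec23 divided by that of Sec31 was 1.42, 1.34 and 1.26 in the controls and 1.02, 0.972 and 0.876 in the knockdown. For Sec16 over Sec31 the ratio was 1.56, 1.81 and 1.84 against 1.21, 1.13 and 1.22. In both pairs every knockdown sample was below every control. That order was favoured by the choice, which set a called gene over the gene with the smallest difference of the group. These ratios are not of molecules, since they are not corrected for gene length.

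**Figure D2:**
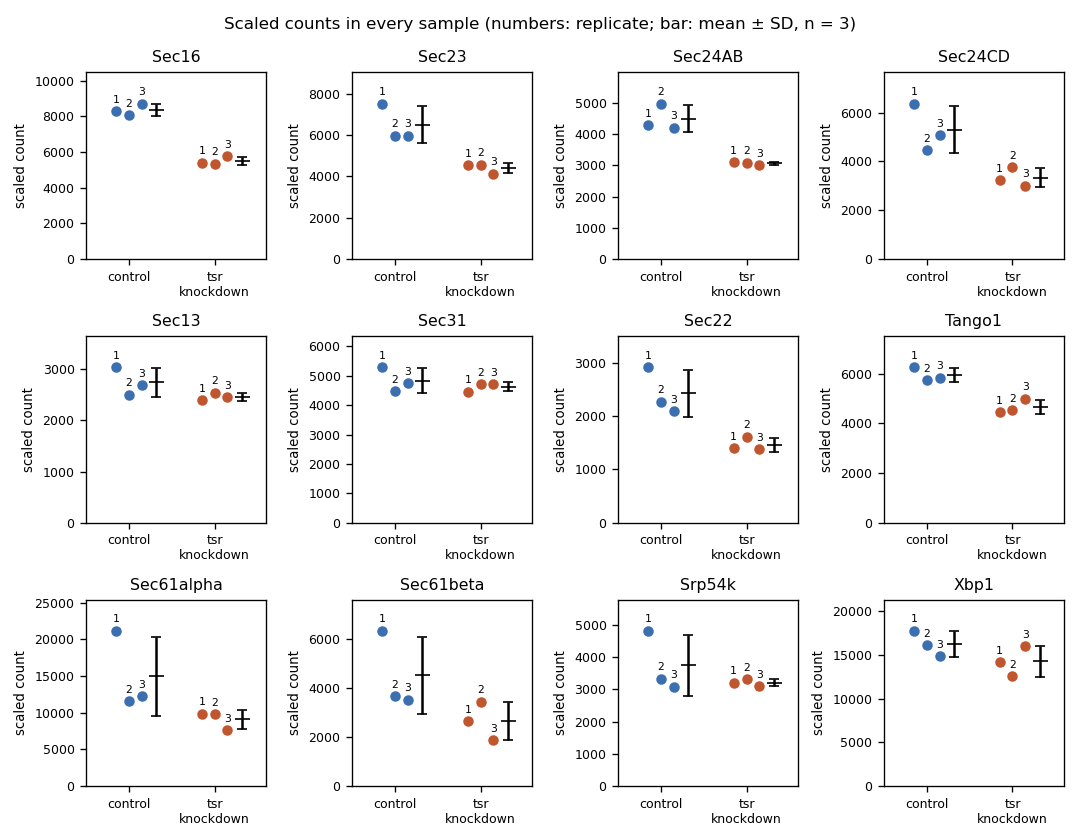
Scaled counts of 12 secretory genes in each control and knockdown sample, numbered by replicate, with the mean ± SD (n = 3) beside each group and axes from 0. Sec16, Sec23 and Sec24AB separate cleanly, Sec31 overlaps, and the Sec61 genes show control replicate 1 far above the other samples.

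The other members of this group lay between these extremes. Tango1, an exit site protein known for loading collagen and other bulky cargo, had 6264, 5738 and 5834 scaled counts in the controls and 4446, 4529 and 4991 in the knockdown. The groups were apart, at a log2 fold change of -0.35 (SE 0.09, limma adjusted p = 0.0653). DESeq2 called Tango1 lower (adjusted p = 0.00189), while edgeR did not (adjusted p = 0.0615). Sar1, the small GTPase that starts COPII assembly, had 8004, 5948 and 5882 scaled counts in the controls and 5690, 5553 and 5735 in the knockdown. The gap between the groups was small and control replicate 1 made most of the difference in means. Its log2 fold change was -0.21 (SE 0.14, limma adjusted p = 0.399), and -0.06 without that replicate.

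Sec22 (FBgn0260855, X:806076-808200), a SNARE that serves fusion between the ER and the Golgi, was the called gene with the largest fall. Its scaled counts were 2920, 2268 and 2092 in the controls and 1395, 1613 and 1380 in the knockdown. All knockdown samples lay below the lowest control. The mean fell from 2426 ± 436 to 1463 ± 130 (SD, n = 3), a log2 fold change of -0.72 (SE 0.16, limma adjusted p = 0.0393). The SNARE gene Sec20 (238 ± 27 against 185 ± 9 scaled counts, SD, n = 3) had a log2 fold change of -0.36 and did not pass (limma adjusted p = 0.266), and its exons overlap a transposon insertion and CG46303.

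The 7 COPI subunit genes were all lower, none past the threshold by limma or edgeR and 3 by DESeq2, which calls 13.4% of all genes lower. The 3 were betaCOP, gammaCOP and epsilonCOP, which were also the 3 with an unadjusted limma p under 0.05 (all genes lower 15.1%). gammaCOP, whose product is part of the layer that resembles clathrin adaptors, had 3837, 3048 and 3388 scaled counts in the controls and 2496, 2648 and 2237 in the knockdown. The groups did not overlap, and the log2 fold change was -0.47 (SE 0.13, limma adjusted p = 0.0636). epsilonCOP, a subunit of the outer layer, had the largest difference of the 7 at -0.57 (SE 0.16, limma adjusted p = 0.0743), and its exons overlap Phf5a on the other strand. betaCOP stood at -0.39, zetaCOP at -0.36, beta'COP at -0.34, alphaCOP at -0.24 and deltaCOP at -0.18. The differences were not sorted by layer, since the adaptor-like subunits beta, gamma, delta and zeta ran from -0.47 to -0.18 and the cage subunits alpha, beta' and epsilon from -0.57 to -0.24.

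The genes for the p24 cargo receptors bai, eca and CHOp24, which travel in COPI and COPII vesicles, had log2 fold changes of -0.22, -0.25 and -0.23. All 3 had overlapping groups and limma adjusted p-values from 0.399 to 0.427, none had an unadjusted p under 0.05, and neither edgeR nor DESeq2 called any.

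The translocon genes had the largest differences of any role group and the least even controls. Sec61alpha, the channel itself and the gene of the 42 with the second highest level per length, had 21172, 11560 and 12227 scaled counts in the controls and 9877, 9828 and 7649 in the knockdown. Every knockdown sample was lower, but control replicate 1 stood at 1.78 times the mean of the other controls. The log2 fold change was -0.67 (SE 0.26, limma adjusted p = 0.154). The small channel subunit genes Sec61beta and Sec61gamma were at -0.76 and -0.75. SsRbeta, a subunit of the translocon-associated protein complex, was at -0.86 (SE 0.29, limma adjusted p = 0.113), and its scaled counts were 7492, 4130 and 4166 in the controls and 3106, 3269 and 2110 in the knockdown. Sec63, which docks the ER chaperone BiP at the channel, was at -0.42.

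In all 5 translocon genes every knockdown sample lay below every control, against 19.6% of all tested genes. None was called by limma or edgeR, and 4 had an unadjusted limma p under 0.05 (all genes lower 15.1%). DESeq2 called SsRbeta lower (all genes 13.4%). The scaled count of Sec61alpha divided by that of Sec61beta was 3.34, 3.14 and 3.47 in the controls and 3.74, 2.85 and 4.09 in the knockdown, so this ratio overlapped between the groups. Per kilobase of exon, the control means were 7042 scaled counts for Sec61alpha, 5700 for Sec61beta and 2588 for Sec61gamma, and the knockdown means were 4285, 3351 and 1484.

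The genes of SRP, which binds signal sequences as they leave the ribosome, had smaller differences. The 6 log2 fold changes ran from -0.40 (Srp9) to -0.12 (Srp19), none had an unadjusted p under 0.05, and none was called by limma, edgeR or DESeq2. Srp54k, the GTPase that holds the signal sequence, had 4823, 3339 and 3088 scaled counts in the controls and 3212, 3318 and 3096 in the knockdown. Apart from control replicate 1 its samples were nearly level, and the log2 fold change of -0.20 became -0.00 without that replicate.

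**Figure D3:**
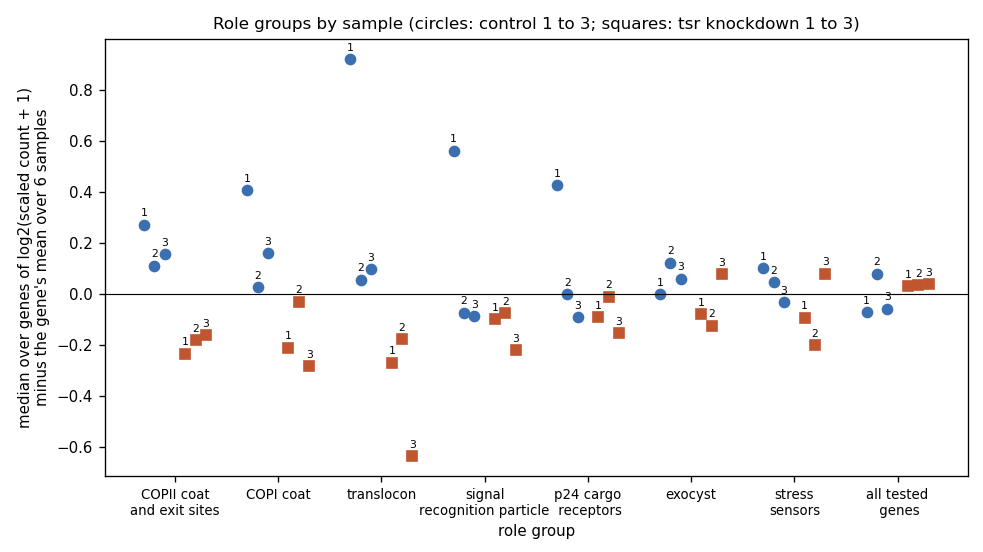
For each role group and sample, the median over its genes of log2(scaled count + 1) minus the gene's own mean over the 6 samples; circles are controls and squares knockdown samples, numbered by replicate. The COPII, COPI and translocon medians of all 3 controls lie above those of all 3 knockdown samples, while for SRP only control replicate 1 stands out, at 0.56.

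Control replicate 1 was thus high in a graded way across the pathway. Its value over the mean of the other controls had a median of 1.78 in the translocon genes, 1.53 in SRP, 1.38 in the p24 genes, 1.19 in COPI, 1.16 in COPII and 0.93 in the exocyst, against 0.927 over all tested genes. Without it the median log2 fold change went from -0.75 to -0.45 for the translocon, from -0.25 to -0.06 for SRP, from -0.23 to -0.07 for the p24 genes, from -0.36 to -0.22 for COPI and from -0.45 to -0.38 for COPII. The translocon genes also spread within the knockdown, where replicate 3 was the lowest with a median of -0.64 relative to each gene's mean, against -0.27 and -0.18 in replicates 1 and 2.

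**Figure D4:**
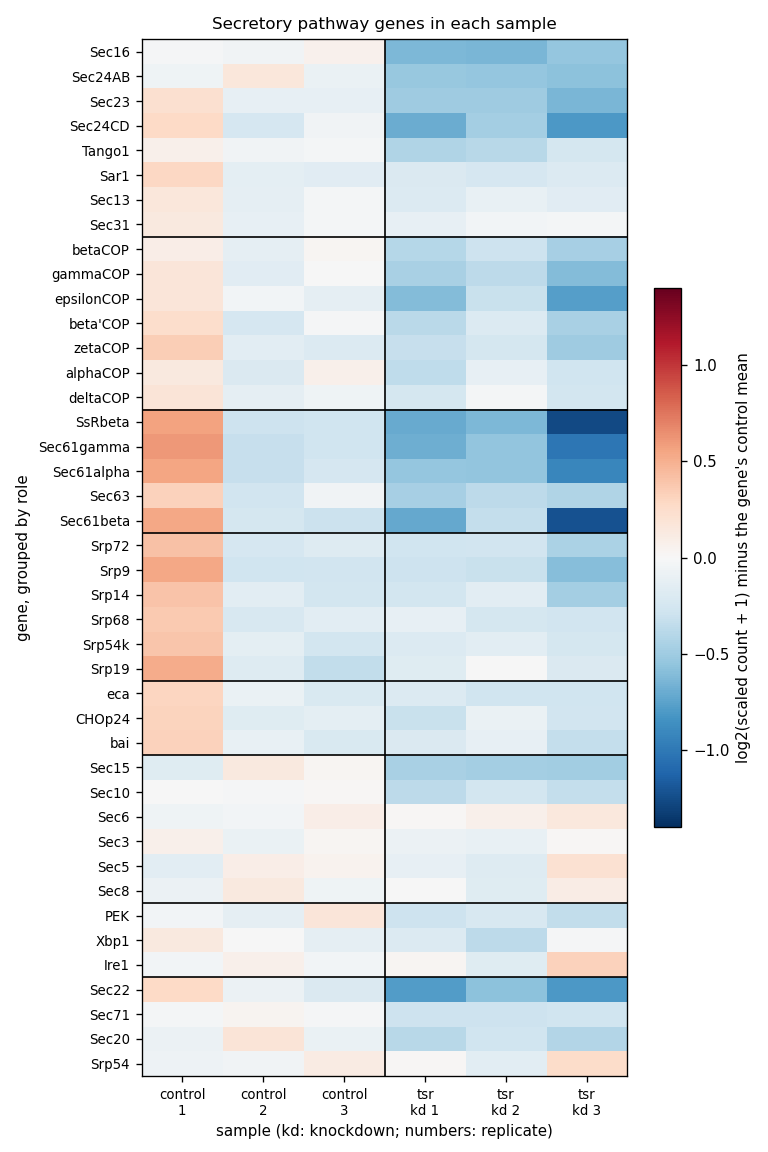
Each of the 42 genes (rows, grouped by role) in each of the 6 samples (columns), as log2(scaled count + 1) minus the gene's control mean. The deepest blue cells are SsRbeta and Sec61beta in knockdown replicate 3, and the deepest red cell is Sec61gamma in control replicate 1.

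Exocyst genes, whose products tether vesicles at the plasma membrane after the Golgi, were divided. Sec15 had 714, 887 and 821 scaled counts in the controls and 588, 576 and 571 in the knockdown, a log2 fold change of -0.47 (SE 0.13, limma adjusted p = 0.0666). Sec10 had 765, 754 and 775 against 594, 642 and 606, a log2 fold change of -0.32 (SE 0.11, limma adjusted p = 0.116). In both every knockdown sample lay below every control (all genes 19.6%). DESeq2 called both lower (all genes 13.4%), while limma and edgeR did not. Sec3, Sec5, Sec6 and Sec8 lay between -0.06 and 0.08 with overlapping groups and limma adjusted p-values from 0.69 to 0.918. Sec6 had the highest log2 fold change of the 42, with 527, 535 and 584 scaled counts in the controls and 554, 577 and 609 in the knockdown. Upper-quartile rescaling moved Sec3, Sec5 and Sec8 to between 0.03 and 0.07, and rescaling to muscle marker genes moved Sec6 to -0.50. Exons of Sec15 overlap Tbc1d22, those of Sec8 overlap CG2082 and those of Sec5 overlap CG3246.

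Of the remaining names, Sec71, which activates Arf GTPases at the Golgi, was even in both groups, with 2948, 3076 and 2960 scaled counts in the controls and 2452, 2443 and 2461 in the knockdown. The groups were clearly apart for a small difference, a log2 fold change of -0.29 (SE 0.08, limma adjusted p = 0.0748, DESeq2 adjusted p = 1.68e-06). The splicing factor gene Srp54 was at 0.04 (limma adjusted p = 0.871) with overlapping groups.

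The stress sensor genes did not pass the threshold in either direction by limma, edgeR or DESeq2. Xbp1, whose mRNA is the substrate that Ire1 splices to make the active transcription factor, had the highest level of the 42 per kilobase of exon, 7577 scaled counts in the controls and 6650 in the knockdown. Its scaled counts were 17756, 16108 and 14823 in the controls and 14195, 12541 and 15999 in the knockdown, and the groups overlapped. The log2 fold change was -0.19, with a 95% interval from -0.52 to 0.14 (limma adjusted p = 0.407). A count per gene does not separate spliced from unspliced Xbp1 RNA.

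Ire1 had 1617, 1744 and 1609 scaled counts in the controls and 1684, 1470 and 2071 in the knockdown, which held both the lowest and the highest sample. Its log2 fold change was 0.06, with an interval from -0.30 to 0.42 (limma adjusted p = 0.816), and Ire1 exons overlap MICU3 on the other strand. PEK, the kinase that slows translation under ER stress, had 2070, 1950 and 2399 scaled counts in the controls and 1740, 1823 and 1681 in the knockdown. The groups were apart, the log2 fold change was -0.29 (SE 0.11, limma adjusted p = 0.16), and it was the only gene of the 3 with an unadjusted p under 0.05.

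Other genes of the pathway, from lists compiled with earlier results of these data known, gave the setting. Among 12 ER chaperone and folding genes, limma called 8 lower and 0 higher, where 7.02% of all genes were called lower. The log2 fold change was below 0 in 11 of the 12 (all genes 46.1%), with a median of -0.78. ERp60, a disulfide isomerase gene, had 24819, 22235 and 24453 scaled counts in the controls and 12070, 14036 and 9016 in the knockdown. It fell by 1.05 on the log2 scale (SE 0.18, limma adjusted p = 0.0221). Gp93, the ER form of Hsp90, fell by 0.96, and the lectin chaperone gene Cnx99A fell by 0.72. Hsc70-3, the fly BiP gene, had 47819, 33962 and 35771 scaled counts in the controls and 17576, 20927 and 10907 in the knockdown. Its fall of 1.29 was the largest of the list (SE 0.28, limma adjusted p = 0.0386), and it was named after its value was seen. Without control replicate 1 only 1 of the 12 was called, and without knockdown replicate 1 none was.

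ER-associated degradation returns misfolded proteins to the cytosol. Of its 12 genes, limma called 7 lower and 0 higher, where 7.02% of all genes were called lower. The log2 fold change was below 0 in 11 of the 12 (all genes 46.1%), with a median of -0.54. The 7 calls became 1 without knockdown replicate 1 or 2, 2 without control replicate 3, and 4 to 6 without each of the other samples. TER94, the VCP-type segregase gene that also serves outside the ER, had 28450, 34706 and 30586 scaled counts in the controls and 12017, 14089 and 14523 in the knockdown. It fell by 1.21 (SE 0.13, limma adjusted p = 0.00807) and kept its call in all 6 fits that left out a sample. Its cofactor gene Ufd1-like fell by 0.85 and the ubiquitin ligase subunit gene Hrd3 by 0.67. Signal peptidase and oligosaccharyltransferase process proteins as they pass the channel, and the SRP receptor docks the ribosome there. The list of these genes also held TRAM and Trp1, at -0.41 and -0.49. Its median was -0.49 over 13 genes, and 9 had an unadjusted p under 0.05, against 15.1% of all genes. By limma and edgeR 0 of the 13 were called, and by DESeq2 4 were, against 13.4% of all genes. Control replicate 1 stood at a median of 1.44 times the other controls in this list.

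Of 22 Golgi tether, SNARE and GTPase genes, limma called 5 lower and 0 higher, against 7.02% and 4.58% of all genes. The log2 fold change was below 0 in 21 of the 22 (all genes 46.1%), with a median of -0.40. The GTPase gene Rab6 fell by 0.89, the SNARE gene Bet1 by 1.04 and Arf79F, the Arf GTPase gene that recruits COPI, by 0.80 (limma adjusted p from 0.0158 to 0.0313). Of 9 clathrin and adaptor genes, limma called 6 lower and 0 higher, against the same 7.02% and 4.58% of all genes. Their products coat vesicles at the trans-Golgi and the plasma membrane. All 9 had a log2 fold change below 0, with a median of -0.66. In all 9 every knockdown sample lay below every control, against 19.6% of all tested genes. Clathrin light chain (Clc) had 5405, 5278 and 5137 scaled counts in the controls and 2913, 3282 and 3055 in the knockdown. It fell by 0.78 (SE 0.09, limma adjusted p = 0.00901), and AP-2alpha and AP-1mu fell by 0.67 and 0.65. Without knockdown replicate 1 none of the 22 and none of the 9 was called, by limma, where 1.22% of all genes were called lower. Among the p24 genes outside the 42, loj fell by 0.88 (limma adjusted p = 0.0344) and the other tested genes of the list, opm and p24-1, had 0.24 and -0.25. The exocyst genes Exo70 and Exo84 were at -0.37 and -0.22 and were not called by limma or edgeR, while DESeq2 called 1 of them.

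The regulators did not share a direction. Atf6, the membrane-bound sensor that becomes a transcription factor, had 2651, 2723 and 2636 scaled counts in the controls and 1735, 1782 and 2073 in the knockdown, and fell by 0.52 (SE 0.11, limma adjusted p = 0.0328). PPP1R15, the phosphatase subunit gene that reverses the action of PEK, fell by 0.47 (limma adjusted p = 0.0416). Leaving out a sample ended the call of PPP1R15 in all 6 fits (limma adjusted p from 0.0543 to 0.139) and that of Atf6 in 4 of 6 (up to 0.147). crc, the fly ATF4 gene, whose translation PEK favours, had 12169, 9955 and 10783 scaled counts in the controls and 15112, 13851 and 17461 in the knockdown. All its knockdown samples were above all controls, at a log2 fold change of 0.49 that missed the threshold (SE 0.13, limma adjusted p = 0.0667, but called by DESeq2). CrebA, a known activator of secretory pathway genes in fly secretory organs, had 3541, 4155 and 2794 scaled counts in the controls and 2012, 2989 and 2756 in the knockdown. The groups overlapped, at a log2 fold change of -0.44 (limma adjusted p = 0.243).

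Summed markers of muscle, of epidermis and cuticle, and of neurons were apart between the groups, while those of the other tissues listed overlapped. The part of tissue content in these results was not tested. The summed scaled counts of 14 muscle markers were 2620086 to 3723882 in the controls and 4027117 to 5516912 in the knockdown. None of the 14 was at 0 in any sample, and none was called by limma or edgeR. At an unadjusted limma p under 0.05, 7 were higher, against 14.0% of all genes. DESeq2 called 9 higher, against 10.7%. For 10 epidermal and cuticle markers the sums were 4253861 to 4995325 against 1307873 to 2139127. Of the 9 tested, 7 had a negative log2 fold change and limma called 4 lower (all genes 7.02%). The cuticle genes Lcp1 to Lcp4 supplied most of these sums in every sample. The gene kkv, also on the list, was at 0.04 (limma adjusted p = 0.853). For 8 neuronal markers the sums were 4317 to 7786 against 17616 to 20558, and limma called 3 higher (all genes 4.58%). Salivary gland glue genes summed to 117006, 47337 and 47.8 scaled counts in the controls and to 591, 44474 and 15575 in the knockdown. The translocon medians in control replicates 1 to 3 were 0.92, 0.06 and 0.10 relative to each gene's mean. A link between glue and translocon values was not tested. The glue sums joined genes that differed in sign. The 6 Sgs genes and Eig71Ee had negative log2 fold changes, none called by limma, and supplied nearly all of the sum in control replicates 1 and 2. The genes ng1, ng2 and ng3 had positive ones, and ng3, the only one called, supplied 25186 scaled counts in knockdown replicate 2 and 13827 in replicate 3. At 0 were ng1 and ng2 in control replicate 2 and ng2 in control replicate 3, and of the gut markers 1 was at 0 in each of these replicates. The sums of 8 fat body markers (639930 to 1427176 against 1145006 to 1461849), 8 blood cell markers (88074 to 102697 against 94987 to 132990), 7 tracheal markers (150888 to 203950 against 132359 to 152153) and 8 gut markers (1159 to 19717 against 614 to 19005) overlapped between the groups. By limma, 2 of the 8 fat body genes were called lower and 1 higher. Of the 8 blood cell genes 2 were called lower, and of the 7 tracheal genes 3. Only ng3 of the glue genes was called, as higher, and no gut gene was. Over all genes the shares were 7.02% lower and 4.58% higher. Rescaling the samples to the muscle markers moved the median of all tested genes from 0.06 to -0.52. It gave 25 of the 42 secretory genes as called lower, against 14.9% of all genes. The median of the 42 relative to that of all genes was -0.37 there and -0.36 before. A factor per sample shifts all genes nearly alike, so this rescaling could hardly move that difference.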

How the data were processed

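RNA was sequenced from 6 samples, 3 per group, grouped by their titles. Per the submitters' processing notes, STAR 2.5.0a, Picard and HTSeq 0.5.3 were used with the dm6 build; the annotation and strand setting are not given in the sources used here. The authors deposited a signal, counts of reads in each gene after division by a size factor of the sample (here "scaled counts"). All values lay within 0.01 of a whole multiple of that sample's step, so reads were recovered by division. In knockdown replicate 1 that step is so close to 1 that the recovery could not be checked as it was in the other 5 samples; the edgeR and DESeq2 values include this sample and carry that doubt. The 4 rows of reads outside genes (19.39% to 27.04% of each sample) were left out.

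Testing used limma 3.58.1 with a trend in R 4.3.3 and no covariate, applied to log2(scaled count + 1) where the mean reached 10; this scale understates changes of low genes. Fold changes are knockdown minus control. The procedure was tested on simulated data in which all genes had the same scatter and no sample stood apart. It therefore cannot show how the procedure performs on these samples. Exon lengths, overlaps and coordinates are from the Ensembl release 115 annotation, in dm6 coordinates; strand was unknown, so overlapping genes are uncertain. Alternatives were other pseudocounts, filters and scalings, edgeR 4.0.16, DESeq2 1.42.0, a replicate block, and leaving out each sample. Members, lists and alternatives were chosen with earlier results of these data known. Values are given for every called member among the 3 with the smallest p in its role group, for Sar1, Tango1, Xbp1, Ire1, PEK and Sec6, and for up to 3 called genes per other list; further genes were chosen after their values were seen. Reads without molecular identifiers are not independent molecules, and p-values measure the spread between these samples.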

Additional observations from a re-analysis of the deposited data

How the results depend on the processing

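The number of secretory genes called lower, 4, was 2 with upper-quartile scaling, 25 with scaling to muscle markers, 13 with DESeq2 and 0 with the replicate block, and 0 to 8 over the 6 fits that left out a sample. Their median of -0.30 was -0.886 with muscle marker scaling and -0.352 to -0.183 when a sample was left out. The 537 higher and 823 lower genes of the whole table were 176 and 1749 with muscle marker scaling, 1258 and 1569 with DESeq2, 24 and 88 with the replicate block, and 41 to 2426 and 143 to 921 when a sample was left out. Same-numbered samples had deviations correlated at -0.4597, -0.0322 and 0.1921, so the numbers were not treated as pairs. tsr kept its call in all 16 alternatives, from -2.88 to -2.13.

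Directions that reversed were all of small differences with no call. Upper-quartile scaling gave 0.047 for the exocyst median, 0.030 for Sec31, 0.032 for Sec3, 0.062 for Sec5 and 0.069 for Sec8. Muscle marker scaling gave -0.502 for Sec6, -0.545 for Srp54 and -0.524 for Ire1. Leaving out a sample gave Sec31 from -0.116 to 0.007 and Srp19 from -0.294 to 0.135, both highest without control replicate 1. It gave Sec5 from -0.149 to 0.047 (0.016 and 0.017 in other fits), Sec8 from -0.085 to 0.051 (0.047 in another), the exocyst median from -0.122 to 0.006, Srp54 from -0.070 to 0.132 and Ire1 from -0.074 to 0.173, both lowest without knockdown replicate 3. The causes were not tested.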
